A study of Mus musculus with 2 samples.

Results

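Keratins are the intermediate filament proteins of epithelial cells. They form obligate pairs of 1 type I (acidic) and 1 type II (basic) chain, so a filament needs a partner of each kind. Krt8 (type II) with Krt18 (type I) is the founding pair of simple epithelia, Krt19 and Krt20 are type I keratins of gut and ductal epithelium, and Krt7 is a type II keratin of ducts. Cnfn encodes cornifelin, a small protein of the cornified envelope, the cross-linked shell of the outermost cells of squamous epithelium.

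The genes described here are the 6 keratins Krt7, Krt8, Krt18, Krt19, Krt20 and Krt80 together with Cnfn, 7 of the 54680 loci measured. They were chosen by name with the measured values given below already known, from the same comparison, so their differences are a description and carry no test. CT26 is a mouse colon cancer cell line. In the knockdown group, named shSetdb1, CT26 cells had received, by lentivirus, a short hairpin RNA that targets Setdb1, a histone H3 lysine methyltransferase. In the control group, named shCtrl, CT26 cells of wild-type genotype had received lentivirus with an empty vector. The labels do not say whether that vector made any hairpin, whether more than 1 hairpin was used, or whether the cells were cloned. All cells were grown for 6 days in the same serum-supplemented medium, and the labels call the knockdown cells differentiated. Each of the 2 groups had 1 library, so no value below has a spread between replicates and every difference is between these 2 libraries.

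The shCtrl library held 18421604 reads and shSetdb1 19045830. Levels are in FPKM, that is fragments scaled to the length of the gene model and to a sequencing depth that both libraries share. Read ratios are knockdown over control, each taken against the total of its own library, with a 95% exact binomial (Clopper-Pearson) interval. Such intervals cover counting error of reads only, since each group had 1 library. The labels name no molecular identifiers, and PCR copies of 1 molecule look like separate reads, so the intervals can be too narrow. Log2 ratios are of (FPKM + 1), a scale that understates the change of low genes, and counts of genes past 2-fold are on that scale. Setdb1 itself, the check of the labels, went from 10.4 to 2.47 FPKM, a read ratio of 0.229 (0.202 to 0.259). In bulk RNA, fewer cells that express a gene and less RNA per cell cannot be told apart.

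The 250 bases before the RefSeq start sites of Cnfn and Krt20 are shown because these members had the 2 highest log2 ratios between the libraries. RefSeq promoters (GRCm38.p6, the build of the deposited positions) matched 5 of the 7 members, namely Krt7, Krt8, Krt18, Krt20 and Cnfn. Cnfn lies on the minus strand of chromosome 7 and its sequence covers chr7:25369725-25369974. Krt20 lies on the minus strand of chromosome 11 and its sequence covers chr11:99438154-99438403. Capitals mark TATAA, the core of a TATA box.
Cnfn: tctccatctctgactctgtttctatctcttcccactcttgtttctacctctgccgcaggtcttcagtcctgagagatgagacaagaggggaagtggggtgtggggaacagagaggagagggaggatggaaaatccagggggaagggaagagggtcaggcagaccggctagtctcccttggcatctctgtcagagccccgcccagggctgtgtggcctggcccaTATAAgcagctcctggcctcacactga
Krt20: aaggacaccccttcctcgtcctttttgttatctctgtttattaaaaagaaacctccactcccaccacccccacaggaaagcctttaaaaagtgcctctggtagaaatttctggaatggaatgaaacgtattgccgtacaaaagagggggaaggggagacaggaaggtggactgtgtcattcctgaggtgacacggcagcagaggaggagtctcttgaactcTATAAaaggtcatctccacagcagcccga

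TATAA began 27 bases before the start in Cnfn and 29 bases before it in Krt20. Searched on the gene's strand in the 40 bases before the start, it was also found in Krt18, 19 bases before the RefSeq start, and not in Krt7 or Krt8. Of 27025 promoters, 4.59% held it in that window. The RefSeq starts of Krt7, Krt8 and Krt18 lie inside the deposited gene models, so their windows are not shown. CACCC, the core of a KLF factor site, was searched on both strands and occurred 2 times in Krt20 and 1 time in Cnfn, against 51.3% of promoters with at least 1 match. GGGCGG, a GC box, occurred 1 time in Cnfn and not in Krt20, against 32.9% of promoters. TGANTCA, an AP-1 site, and ACGTG, the core of a hypoxia response element, occurred in neither window, against 6.87% and 16.6% of promoters. No match in these 2 windows overlapped another. Cnfn had 3 CpG dinucleotides and Krt20 had 5, beside a median of 6 over all promoters. A match describes the letters only and is no measured binding site.

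**Figure D1:**
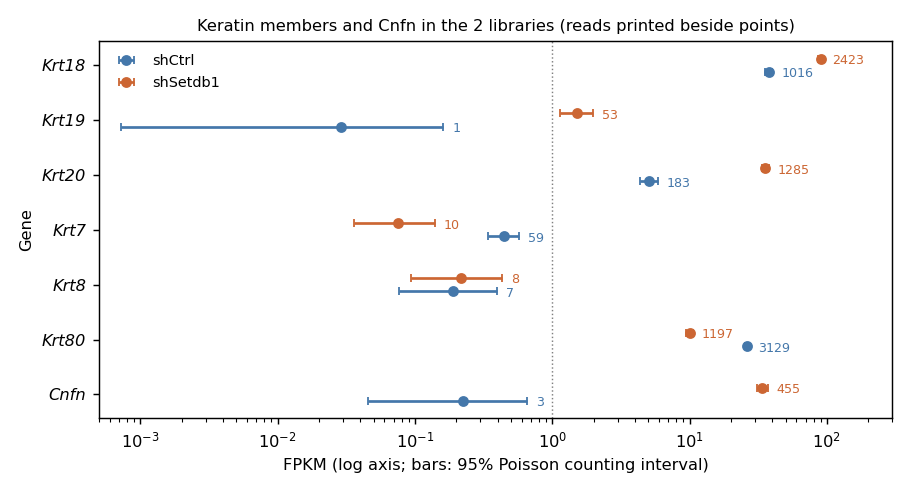
Level of each member in FPKM (log axis) in shCtrl (blue) and shSetdb1 (orange), with 95% Poisson counting intervals and the number of reads beside each point; the dotted line marks 1 FPKM. Cnfn, Krt20, Krt19 and Krt18 lie to the right in shSetdb1, Krt80 and Krt7 to the left, and the 2 points of Krt8 overlap.

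Of the 7 members, 4 (Cnfn, Krt20, Krt19 and Krt18) were at least 2-fold higher in shSetdb1 and 1 (Krt80) was at least 2-fold lower. Over the 10671 genes that reached 1 FPKM in 1 library or both, 6.81% were higher by 2-fold or more and 4.85% lower by 2-fold or more. Since the same comparison chose the members, nothing is read from their count against these shares. Krt7 and Krt8 were below 1 FPKM in both libraries, so 5 members passed the filter on low values. Krt19 and Cnfn passed it only through shSetdb1.

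The type I keratins come first. Krt18 (chromosome 15, 102028180 to 102032027, plus strand) was the most abundant keratin of both libraries. It went from 37.7 FPKM (1016 reads) in shCtrl to 90.0 FPKM (2423 reads) in shSetdb1, with the log2 ratio at 1.23 and the read ratio at 2.31 (2.14 to 2.48). The table holds 4 other loci with the same protein match, predicted genes with 0 reads in either library. The Krt18 gene model overlaps no other locus with reads.

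Krt20 (chromosome 11, 99428403 to 99438150, minus strand) is the type I keratin of differentiated enterocytes and goblet cells, and a usual marker of colorectal epithelium. In these libraries its level was 5.07 FPKM (183 reads) in shCtrl and 35.6 FPKM (1285 reads) in shSetdb1. This gave a log2 ratio of 2.59; the reads differed 6.79-fold (5.81 to 7.97), the widest gap among keratins with over 100 reads in each library. Per length, the Krt18 level was 7.45 times that of Krt20 in shCtrl and 2.53 times in shSetdb1, so Krt20 came nearer to Krt18.

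Krt19 (chromosome 11, 100140810 to 100148665, minus strand), the smallest keratin, which lacks the usual tail domain, was close to absent in shCtrl. It had 1 read there (0.0288 FPKM) and 53 reads (1.53 FPKM) in shSetdb1. The log2 ratio was 1.30. Relative to the library totals, reads were 51.3 times as many, and counting error alone spans 8.81 to 2063 times, so the direction lies outside counting error while the size is poorly set. Even in shSetdb1 the level of Krt19 was far below that of Krt20 or Krt18.

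Among type II keratins, Krt80 (chromosome 15, 101347444 to 101370162, minus strand) carried nearly all the RNA. Krt80 is found in many epithelia, near desmosomes and in differentiating cells. It went from 26.1 FPKM (3129 reads) to 9.996 FPKM (1197 reads), the opposite direction to the type I members, with the log2 ratio at -1.30 and the read ratio at 0.370 (0.346 to 0.396). An antisense locus, Gm35853, overlaps Krt80 and shares its protein match, but had only 26 reads in each library.

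Krt7 (chromosome 15, 101411043 to 101430313, plus strand) was low and lower still in shSetdb1. It had 59 reads (0.447 FPKM) in shCtrl and 10 reads (0.0757 FPKM) in shSetdb1, a read ratio of 0.164 (0.0748 to 0.323). Its log2 ratio of -0.43 is small because the pseudocount outweighs both levels. The antisense locus Gm671, which overlaps Krt7, had 0 reads in shCtrl and 1 in shSetdb1.

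Krt8 (chromosome 15, 101996698 to 102004482, minus strand), the textbook partner of Krt18, was barely detected. It had 7 reads (0.191 FPKM) in shCtrl and 8 reads (0.218 FPKM) in shSetdb1, with a read ratio of 1.11 (0.350 to 3.58), so neither a change nor its absence could be shown at this depth. The Krt18 level was 198 times the Krt8 level in shCtrl and 413 times in shSetdb1. The 2 other loci with the Krt8 protein match, Gm17836 and the pseudogene Krt8-ps, had 0 reads in either library. How reads that map to several loci were counted is not given in the sources used here, and their part in the low Krt8 count was not tested.

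Cnfn (chromosome 7, 25367620 to 25369724, minus strand) had the widest gap of the 7. It had 3 reads (0.223 FPKM) in shCtrl and 455 reads (33.8 FPKM) in shSetdb1, a log2 ratio of 4.83 that ranked 3 among all 10671 genes. Relative to the library totals, reads were 147 times as many, and counting error alone spans 49.9 to 714. In shSetdb1 its level per length was close to that of Krt20.

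**Figure D2:**
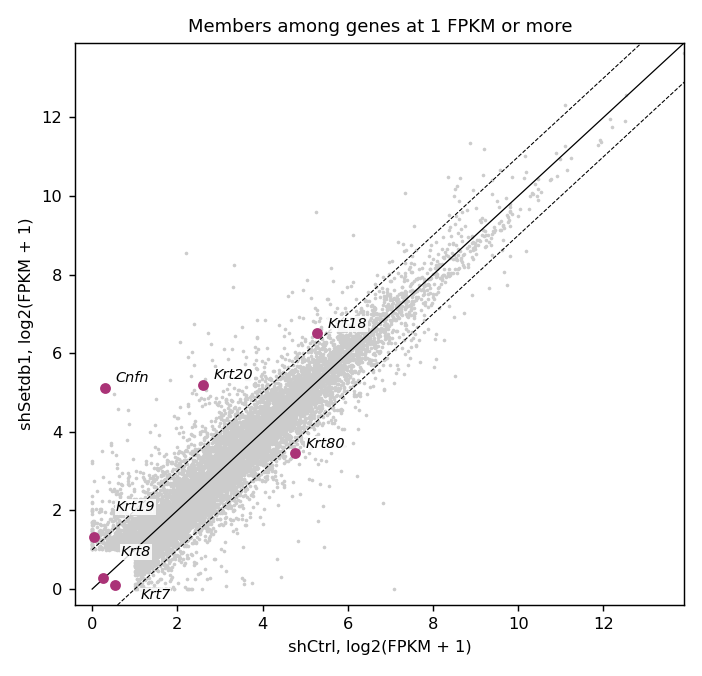
Level in shSetdb1 against level in shCtrl, both as log2(FPKM + 1), for the 10671 genes that reached 1 FPKM in 1 library or both (grey) and the 7 members (purple); dashed lines mark 2-fold. Cnfn and Krt20 stand well above the upper line, Krt80 lies just below the lower line, and Krt7 and Krt8 sit near the origin.

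By type, the balance of keratin RNA differed between the libraries. The 28 type I genes of the table (Krt18 and the keratin genes of chromosome 11) summed to 44.2 FPKM in shCtrl and 130 FPKM in shSetdb1. The 26 type II genes, all on chromosome 15, summed to 27.8 and 11.5 FPKM. Type I therefore exceeded type II by 1.59 times in shCtrl and by 11.3 times in shSetdb1, and its share of keratin FPKM went from 61.4% to 91.9%. Krt18 alone made up 52.5% and then 63.6% of keratin FPKM, Krt20 7.05% and then 25.1%, and Krt80 36.3% and then 7.06%. All keratin genes together summed to 72.0 FPKM in shCtrl and 142 FPKM in shSetdb1. The total number of keratin reads differed less, with 4486 in shCtrl and 5131 in shSetdb1, a read ratio of 1.11 (1.06 to 1.15). Reads weigh long genes more, and the Krt80 gene model of 6393 bases is longer than that of Krt18, 1437 bases.

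**Figure D3:**
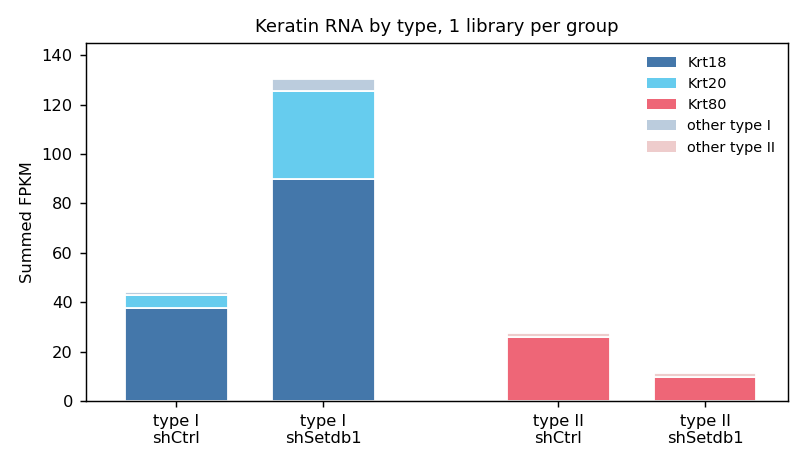
Summed FPKM of type I and type II keratin genes in each library, stacked by gene, with the bars starting at 0 and no error bars since each group has 1 library. The type I bar is taller in shSetdb1 through Krt18 and Krt20, while the type II bar is almost all Krt80 and is shorter.

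Most keratin genes had few or no reads in these cells. Of 54 keratin genes, 26 had 0 reads in both libraries, which allows up to 3 reads each, and 6 reached 1 FPKM in at least 1 library. Those 6 were Krt10, Krt13, Krt18, Krt19, Krt20 and Krt80. In shSetdb1, 4 of them were higher by 2-fold or more and 1 lower, beside 6.81% and 4.85% of all genes tested. Members make up 4 of the 6, with 3 of the higher genes and the lower one, so nothing is read from this count. Krt13 and Krt19 passed the filter only through shSetdb1. The 48 keratins outside the members had 91 reads in shCtrl and 155 in shSetdb1. Their largest difference was that of Krt13, a type I keratin of internal stratified epithelia, which had 1 read (0.0293 FPKM) in shCtrl and 53 reads (1.55 FPKM) in shSetdb1, the same read numbers as Krt19. Krt16, a type I keratin induced in wounded epidermis, had 0 and 12 reads, and the interval of its read ratio begins at 2.69. Krt10, the type I keratin of suprabasal epidermis, had 46 and 30 reads, a read ratio of 0.631 (0.384 to 1.02). Among type II hair keratins, Krt84 had 5 and 21 reads, Krt86 16 and 11, and Krt83 10 and 4. Of these 3, only for Krt84 did the interval of the read ratio, 1.49 to 13.8, leave out 1.

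The keratin genes of chromosome 11 span 1037 kb and those of chromosome 15 span 685 kb. On chromosome 11, Krt13 and Krt19 lie 19.2 kb apart with Krt15, at 0 reads, between them. Krt20 lies apart from that pair, and its nearest neighbours with reads were Krt12 (0 and 1 read) and then Krt10 on one side, and Krt39 (3 and 0 reads) on the other. On chromosome 15, Krt80 and Krt7, both lower in shSetdb1, are neighbours 40.9 kb apart. At the other end of the cluster, Krt8 and Krt18 lie 23.7 kb apart and differ greatly in level. Beyond Krt18, the non-keratin genes Eif4b and Tns2 had log2 ratios of 0.47 and 0.17. Beyond Krt19 and Krt16, the next locus with reads was Eif1, with 662 and 358 FPKM and a log2 ratio of -0.88.

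**Figure D4:**
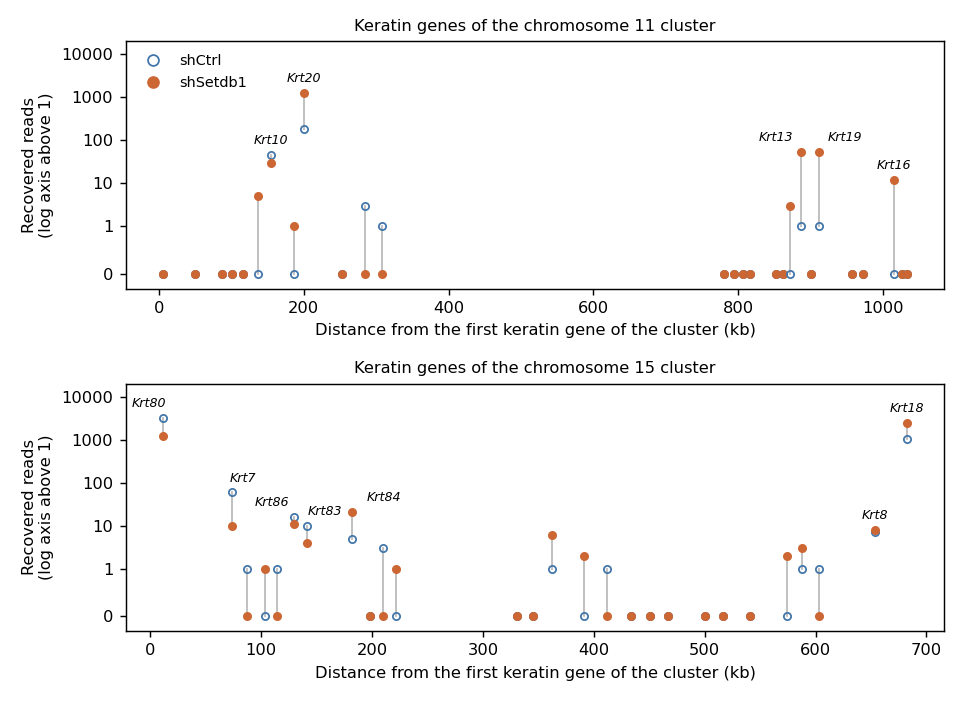
Recovered reads of every keratin gene in shCtrl (open blue) and shSetdb1 (filled orange) by distance in kb from the first keratin gene of its cluster, with a vertical axis that is logarithmic above 1; genes with 10 or more reads are named, and so is Krt8. A few genes at separate places in each cluster hold most of the reads, and most genes between them sit at or near 0.

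Near Cnfn on chromosome 7, Lipe, the hormone-sensitive lipase 9.80 kb away, had 121 and 343 reads, a log2 ratio of 0.97. An antisense locus, 4732471J01Rik, begins 7.10 kb from Cnfn and had 17 and 24 reads. Pafah1b3, a phospholipase subunit 69.6 kb away, went from 29.3 to 73.6 FPKM, a log2 ratio of 1.30. Cnfn thus had the highest log2 ratio of these 4 loci.

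Keratin filaments are anchored at the cell edge by desmosomes and hemidesmosomes. Of 18 keratin-binding, plakin and junction plaque genes, 11 reached 1 FPKM, with 2 at least 2-fold higher and 0 lower and a median log2 ratio of 0.36. Over all genes tested, 6.81% were higher and 4.85% lower by 2-fold or more, with a median of -0.00039. These values stand beside the lists of the paragraphs below as well. The lists were chosen with earlier results of these data known, so nothing is read from their counts. Jup (plakoglobin, an armadillo protein of desmosomes and adherens junctions) went from 7.86 to 27.2 FPKM, a log2 ratio of 1.67. Itgb4 (the hemidesmosomal integrin chain) went from 468 to 1152 reads, with the log2 ratio at 1.10; it overlaps another locus with reads. By reads alone, 3 more of these 11 passed 2-fold. Dst (dystonin), a large plakin, had 2685 and 1128 reads, a read ratio of 0.406 (0.379 to 0.436), and overlaps another locus with reads. Macf1, another large plakin, had 1808 and 906 reads (0.485, 0.447 to 0.525), and Pkp3, a desmosomal plakophilin, 64 and 189 (2.86, 2.14 to 3.85). Among genes below 1 FPKM, Pkp1 had 3 and 24 reads (7.74, 2.35 to 40.1). Eppk1 had 24 and 69 reads (2.78, 1.73 to 4.63) and overlaps another locus with reads. Ppl went the other way, with 3 and 1 reads and an interval that holds 1 (0.00614 to 4.02). Desmoplakin, Dsp, which links keratin filaments to desmosomes, had 0 reads in both libraries, and Plec, the abundant cytolinker plectin, had 59.2 and 76.3 FPKM.

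Of 15 other intermediate filament genes, 9 reached 1 FPKM, with 2 at least 2-fold higher, 0 lower and a median of 0.61. Nefl, a neurofilament chain, went from 1.60 to 9.68 FPKM (log2 ratio 2.04) and overlaps Nefm. Nes, the nestin of progenitor cells, went from 569 to 1444 reads (1.18). Below 1 FPKM, Prph had 0 reads in shCtrl and 21 in shSetdb1, with a read ratio interval that begins at 5.04. Synm, also below 1 FPKM, had 11 and 1 reads (0.0879, 0.00204 to 0.605) and overlaps another locus with reads. Vim, the vimentin of mesenchymal cells, was at 752 FPKM in shCtrl and 835 FPKM in shSetdb1. Vimentin RNA per length thus exceeded the summed keratin level of 72.0 and 142 FPKM in both libraries.

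Few other genes of the cornified envelope were detected. Of 61 cornified envelope and late epidermal genes, 42 had 0 reads in both libraries, among them Ivl, Lor and Flg (involucrin, loricrin and filaggrin). Only 5 reached 1 FPKM, with 0 at least 2-fold higher, 1 lower and a median of 0.18. The lower one was Cdsn, corneodesmosin, an adhesion protein of cornified cells, which went from 73.5 FPKM (3689 reads) to 6.28 FPKM (315 reads), with the log2 ratio at -3.36 and the read ratio at 0.0826 (0.0734 to 0.0927). S100a10 and S100a11, S100 family proteins that are also expressed in many other cell types, had ratios of 0.72 and 0.18. Crct1 had 16 and 33 reads, a read ratio of 1.99 (1.07 to 3.88). Anxa1 had 1436 and 1248 reads (0.841, 0.779 to 0.907). Below 1 FPKM, Sbsn (suprabasin), named after its values were seen, had 3 reads in shCtrl and 57 in shSetdb1, a read ratio of 18.4 (5.98 to 91.7), and overlaps another locus with reads, Tmem147os. Also below 1 FPKM, Tgm3 had 0 and 11 reads, with a read ratio interval that begins at 2.43. Cst6 had 33 and 57 reads (1.67, 1.07 to 2.65). Abca12 went the other way, with 4 and 0 reads and an interval that holds 1 (0 to 1.47).

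Of 42 genes for transcription factors and RNA regulators of epithelial cells, 21 reached 1 FPKM, with 4 at least 2-fold higher, 2 lower and a median of 0.04. The AP-1 genes Junb (62.4 to 206 FPKM, log2 ratio 1.71) and Jun (15.5 to 52.7 FPKM, 1.70) were highest, and both overlap another locus with reads. Sox9, a factor of intestinal crypt cells, went from 6.21 to 14.3 FPKM (1.09). Prdm1, named after its values were seen, went from 8 to 130 reads (1.06). The 2 lower genes were Ets2 (41.3 to 17.1 FPKM, -1.23) and Rbpj (15.5 to 6.89 FPKM, -1.06), the DNA-binding factor of Notch signalling, which overlaps other loci with reads. Notch1, a receptor of that pathway, passed 2-fold by reads alone, with 639 and 1506 (read ratio 2.28, 2.08 to 2.50), and overlaps another locus with reads. Klf4 and Klf5, which act in gut and skin epithelium, had ratios of -0.82 and -0.44. Cdx2, the intestinal master factor, had 5 and 18 reads.

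**Figure D5:**
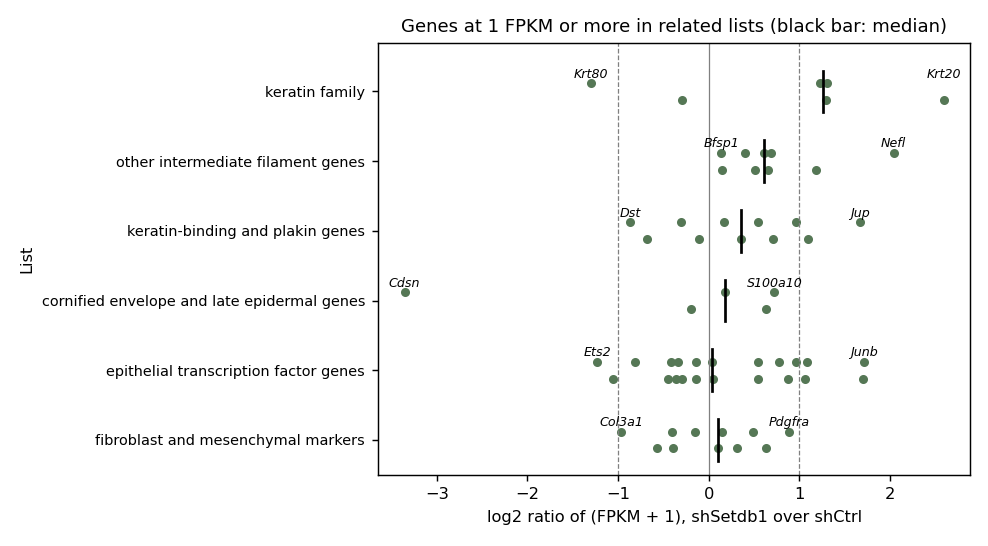
Log2 ratio of (FPKM + 1), knockdown over control, of each gene that reached 1 FPKM in 1 library or both, for 6 lists, with the median as a black bar, dashed lines at 2-fold and the lowest and highest gene of each list named. Keratins reach both beyond the upper line and, with Krt80, beyond the lower line, and Cdsn lies far to the left of the other cornified envelope genes.

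The labels call CT26 a colon cancer line, and the listed markers of colon epithelium were mostly absent in both libraries. Of 20 colon epithelial markers, 12 had 0 reads in both libraries, Cdh1, Epcam, Cldn3 and Fabp1 among them, and the list summed to 1.20 FPKM in shCtrl and 3.06 FPKM in shSetdb1. The 1 marker at 1 FPKM was Cdh17, an intestinal cadherin, which went from 21 to 131 reads (0.251 to 1.56 FPKM), a log2 ratio of 1.04. Of 12 stratified keratinocyte markers, 7 had 0 reads in both, including Krt14 and Krt1, and the list summed to 1.31 and 1.42 FPKM. Of 15 fibroblast and mesenchymal markers, 11 reached 1 FPKM, none past 2-fold on the (FPKM + 1) scale, with sums of 1499 and 1734 FPKM. By reads, 2 of these 11 did pass 2-fold: Pdgfra, a growth factor receptor, had 94 and 333 reads (read ratio 3.43, 2.72 to 4.36), and Col3a1, a fibrillar collagen, 493 and 163 (0.320, 0.266 to 0.383). Endothelial markers had 1 read in all. Of 8 haematopoietic markers, Itgam, Cd3e and Adgre1 had 0 reads, Ptprc had 0 and 4, and the sum, 11.3 and 101 FPKM, was almost all Cd68, a lysosomal protein also found outside macrophages, with 245 and 2360 reads. What part the difference in Cd68 has in the keratin values was not tested.

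The genes with the pattern most like Krt20 and Cnfn were found among protein-coding genes by the Euclidean distance of log2(FPKM + 1) over the 2 libraries, which amounts to similar levels in each. Nearest to Krt20 were Lims2 (5.15 and 34.6 FPKM, distance 0.0456), H2-T23 (5.23 and 39.4 FPKM, 0.149) and Id3 (4.23 and 32.6 FPKM, 0.246). Nearest to Cnfn were Ankrd37 (0.416 and 29.9 FPKM, distance 0.271), Car9 (0.695 and 37.7 FPKM, 0.495) and Cxcl1 (0.513 and 22.9 FPKM, 0.624). Lims2, Ankrd37 and Car9 overlap other loci. With 2 libraries, such likeness rests on 2 values a gene.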

How the data were processed

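RNA of 1 library per group was sequenced. The authors deposited FPKM values for 54680 loci with gene lengths and positions. The submitters' processing notes list CASAVA, HISAT2, featureCounts 1.5.0-p3 and the GRCm38 build; parameters, strand setting and annotation release are not given in the sources used here. Positions of all 7 members equal those of GENCODE M21. Whole reads were recovered as FPKM times length over a step shared by both libraries (100% of values above 0 whole within 0.001), which gave a common depth of 18731117.

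No test between groups was possible. Log2 ratios used a pseudocount of 1, counts of genes a filter of 1 FPKM in at least 1 library and a 2-fold threshold. Genes named were the members, other keratins with 10 or more reads in 1 library, list genes past 2-fold (up to 3 each way), chromosome neighbours and nearest patterns; other genes were named after their values were seen. Some genes that these rules name are not reported here. Members and lists were chosen with earlier results of these data known. Alternatives were 4 scalings, a pseudocount of 0.1, other thresholds and filters, and reads of all loci with a member's protein match. Calculations were tested on simulated data. Software was pandas 2.3.3, numpy 2.4.6, matplotlib 3.10.9 and scipy 1.17.1 under Python 3.11.15.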

Additional observations from a re-analysis of the deposited data

How the results depend on the processing

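Of 74 alternative values of 11 results, 64 moved by less than the counting interval (or, for counts of genes, 1.5 times) and 10 by more. Of the log2 ratios among the 74, 0 changed sign, while counts of genes have no sign to change. Part of the 64 could not move, so their number is no measure of stability. The median read ratio was 1, so scaling by it returned the deposited values. Other loci with a member's protein match held reads only for Krt80. Dropping the filter cannot add genes, since a gene below 1 FPKM in both libraries cannot reach 2-fold on the (FPKM + 1) scale. With a pseudocount of 0.1 the log2 ratio was 3.66 for Krt19, 2.79 for Krt20, -1.64 for Krt7 and 6.71 for Cnfn, all farther from 0 since a smaller pseudocount weighs less on low levels, and 1134 genes in all were at least 2-fold higher in place of 727. By construction, a 1.5-fold threshold gave 1804 genes, and a 4-fold threshold gave 116 genes, 2 members and 1 keratin of the family. With the filter at 5 FPKM, 2 keratins were at least 2-fold higher in place of 4, since Krt13 and Krt19 did not reach it. Scaling by the median ratio, the upper quartile, the sum without the 100 highest genes or the libraries' own totals left 4 members at least 2-fold higher, and put the median log2 ratio of all genes between -0.0420 and -0.00039. No paired analysis was possible because only 1 library stood in each group, which also meant that none could be left out. Depth limits Krt7, Krt8, and the control levels of Krt19 and Cnfn.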

Other observations

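Of 58 keratin-associated protein genes, which encode hair matrix proteins, 57 had 0 reads in both libraries. The exception, Krtap1-5, had 33 reads (1.69 FPKM) in shCtrl and 0 in shSetdb1, and the 95% exact interval of its read ratio begins at 8.74-fold lower. Trp63, the factor of basal squamous cells, had 14 reads in shCtrl and 0 in shSetdb1, with a bound of 3.43-fold lower by the same interval. Trp63 was named after its values were seen.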
